A study of Mus musculus with 4 samples.

Results

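The genes described here are 9 core genes of the Notch pathway, read in gastric gland cells of the mouse. They are the receptors Notch1, Notch2 and Notch3, the ligands Jag1, Dll1 and Dll4, the target genes Hes1 and Hey1, and Rbpj, the DNA-binding protein of the pathway. They were taken by symbol, as probe sets that the platform annotation pairs with exactly 1 gene, and all 9 were found, on 10 probe sets, among 19938 genes on the arrays. Their RNA was read with Affymetrix Mouse Gene 1.0 ST arrays in 2 cell types cut from sections of adult stomach by laser capture, in which chosen cells are lifted out under the microscope. The groups were zymogenic (chief) cells of MIST1 knockout mice, zymogenic cells of wild type mice, mucous neck cells of MIST1 knockout mice and mucous neck cells of wild type mice, all on a C57BL/6 background. MIST1, the product of Bhlha15, is a transcription factor that builds up the secretory machinery of cells such as the zymogenic cell. The design text names 5 knockout and 4 wild type mice and writes the knockout as Mist1-/-; it gives no further detail of the allele, and no age beyond adult or sex is stated. Zymogenic cells were picked as cells of the gastric corpus that lay below the lectin label and lacked the outline of parietal cells.

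Each group was 1 array, made from RNA pooled over several dissections and several mice per the labels, so no value below has a replicate, an error or a p-value, and every difference compares 1 pool with another. The values are array intensities, and a gene counts as detectable in a comparison if either of its values was at least 43.7, the median over probe sets with 1 gene. That level was set by size, and no background was measured. Differences are log2 values, written as MIST1 knockout minus wild type or as zymogenic minus neck, so that a difference of 1 is 2-fold. A probe set's intensity also depends on its own probes, so differences are taken between arrays for 1 gene and not between genes. The detection level is the same for all genes, so a gene may fall under it because of its probes. In sums over marker genes the brightest probe sets weigh most. Fewer expressing cells and less RNA per cell cannot be told apart in such pools.

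Notch receptors sit on the cell surface and are activated by ligands on a neighbouring cell. Binding leads to cleavage of the receptor by an ADAM protease and then by gamma-secretase, and the freed intracellular part enters the nucleus, where it joins RBPJ and turns a repressed gene on. Hes1 and Hey1 encode repressors that are induced in this way and in turn hold back proneural and secretory differentiation factors. In the stomach and intestine the pathway is known for keeping progenitor cells dividing and for limiting the output of secretory cells. Dll4 is also a ligand of endothelial cells and Notch3 a receptor of pericytes and smooth muscle.

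The cell labels were first set against marker genes. Summed over 6 mucous neck markers, intensity was 689 in MIST1 knockout and 1839 in wild type zymogenic cells, against 11845 in MIST1 knockout and 9616 in wild type neck cells. Summed over 7 zymogenic markers it was 24779 and 23302 in zymogenic cells of MIST1 knockout and wild type mice, and 14229 and 14329 in their neck cells, so zymogenic products were also high in the neck samples. Of this list Pga5, a pepsinogen gene, went the other way, with 20.4 in MIST1 knockout and 31.0 in wild type zymogenic cells, against 1884 in MIST1 knockout and 1349.5 in wild type neck cells. Bhlha15 read 22.0 in MIST1 knockout and 149.8 in wild type zymogenic cells, and 20.2 in MIST1 knockout and 59.7 in wild type neck cells. Whether its probes fall within the deletion is not known here. Parietal markers were high on all arrays, with sums of 8787 in MIST1 knockout and 4944 in wild type zymogenic cells. In neck cells the sums were 10693 in MIST1 knockout and 9712 in wild type mice. All 8 parietal markers were lower in zymogenic than in neck cells of wild type mice, and 6 of 8 in MIST1 knockout mice. Their part in the differences between cell types was not tested. Array medians over probe sets with 1 gene ran from 41.9 in MIST1 knockout neck to 44.7 in wild type zymogenic cells.

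RBPJ is the point at which the pathway meets DNA, so the promoters of the genes were searched for the core of its binding site. RefSeq windows of build GRCm38.p6 were given for 7 of the 9 genes, as 9 windows, and the 250 bases before each transcript start were read. No window was given for the target genes Hes1 and Hey1, so their promoters were not searched. The motif searched was TGGGAA on either strand, written TTCCCA on the other. It was present in 2 of the 9 windows, or 22.2%, against 21.6% of all 32851 windows. Both windows belong to Rbpj itself and overlap, so 1 of their matches is the same site. They lie inside the gene, which RefSeq places at 53555779 to 53657445 of chromosome 5, and so precede internal transcript starts. The bases before the outer start of the gene were not among the windows. With only 7 genes searched, the share can be called neither like nor unlike that of all windows. The longer form GTGGGAA was in 0 of the 9 windows and in 5.41% of all windows. Shown here are the first Rbpj window, because it holds the motif, and the Dll4 window, because Dll4 had the largest difference of the 9 genes and its window holds no match. They lie at chr5:53590096-53590345 on the plus strand and at chr2:119325534-119325783 on the plus strand, and capitals mark the motif.
Rbpj: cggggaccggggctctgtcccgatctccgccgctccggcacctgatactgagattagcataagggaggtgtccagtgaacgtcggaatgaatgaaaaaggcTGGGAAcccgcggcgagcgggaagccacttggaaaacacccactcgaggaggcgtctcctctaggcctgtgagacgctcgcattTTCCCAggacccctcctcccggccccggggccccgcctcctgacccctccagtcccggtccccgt
Dll4: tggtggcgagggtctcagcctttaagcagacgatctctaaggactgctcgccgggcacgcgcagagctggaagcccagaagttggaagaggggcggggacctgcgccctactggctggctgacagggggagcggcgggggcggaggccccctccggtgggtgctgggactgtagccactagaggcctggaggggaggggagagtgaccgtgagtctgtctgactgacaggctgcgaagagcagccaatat
In the Rbpj window the matches begin 149 bases and 65 bases before the transcript start. A match describes these letters only and is not a measured binding site.

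The 9 genes fell into 3 classes by level. Hes1, Hey1 and Rbpj reached the detection level on all 4 arrays, Notch3, Dll1 and Dll4 on some of them, and Notch1, Notch2 and Jag1 on none. Of all 19938 genes, 7003 reached it on none of the arrays, so this count does not set the 9 genes apart. Of the 3 receptors, only Notch3 was detectable anywhere, and on 1 array. None of the 9 genes reached 2-fold in any of the 4 comparisons, whether or not low values were left out, when each gene was read from its probe set of highest mean.

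**Figure D1:**
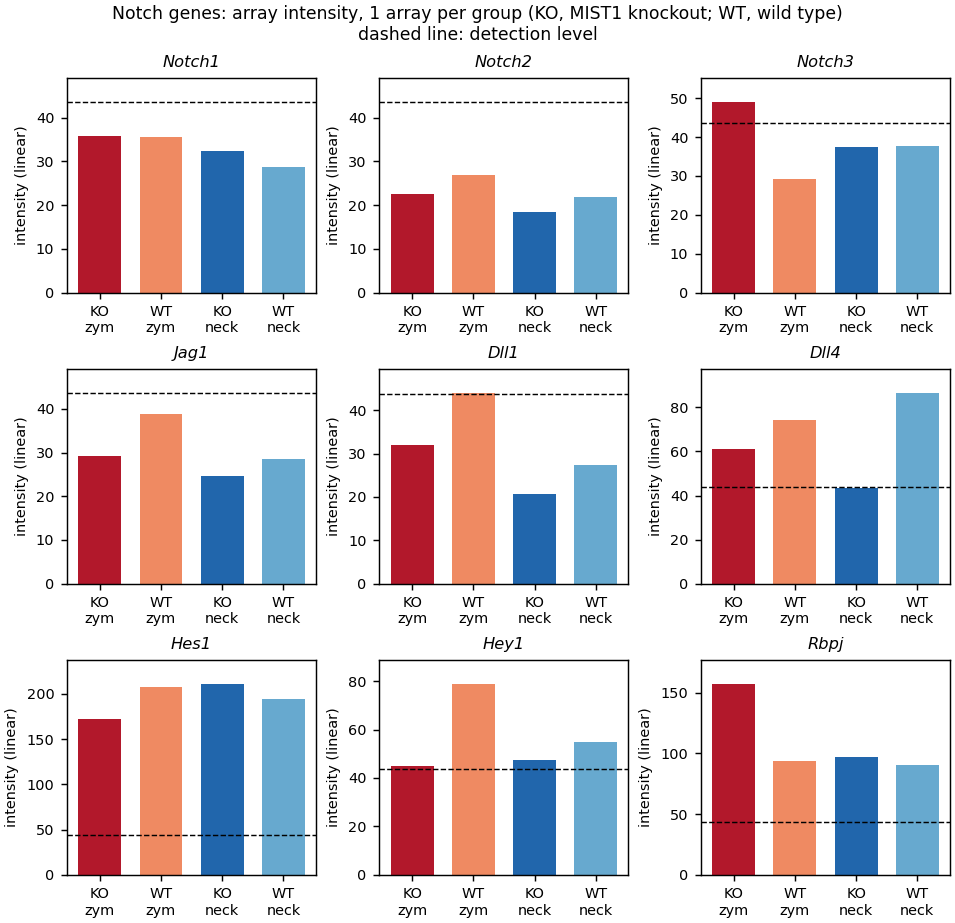
Array intensity (linear, from 0) of the 9 Notch genes, 1 bar per array, with zymogenic cells in red tones and neck cells in blue tones, MIST1 knockout (KO) to the left of wild type (WT). The dashed line is the detection level of 43.7, which Hes1, Hey1 and Rbpj reach on all 4 arrays and Notch1, Notch2 and Jag1 on none.

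Among the receptors, Notch1, a main receptor of epithelial progenitors, read 35.8 in MIST1 knockout and 35.6 in wild type zymogenic cells, and 32.3 in MIST1 knockout and 28.8 in wild type neck cells. Notch2, which overlaps with Notch1 in the intestine, read 22.6 in MIST1 knockout and 26.8 in wild type zymogenic cells, and 18.3 in MIST1 knockout and 21.9 in wild type neck cells. All 8 of these values lie under the detection level, with the highest array 1.24 times the lowest for Notch1 and 1.46 times for Notch2. At such levels the order of the arrays is not firm.

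Notch3 read 49.1 in MIST1 knockout and 29.3 in wild type zymogenic cells, and 37.4 in MIST1 knockout and 37.8 in wild type neck cells. It was thus highest in MIST1 knockout and lowest in wild type zymogenic cells, with both neck arrays close together between them. Its genotype difference was 0.74 in zymogenic cells, the largest among the 3 receptors, and 21.0% of all detectable genes lay at least as far from 0 in that comparison. Because Notch3 belongs to pericytes and smooth muscle in most tissues, their markers were read beside it. Summed over 9 such markers, intensity was 1082 in MIST1 knockout and 1184 in wild type zymogenic cells, and 325 in MIST1 knockout and 533 in wild type neck cells. Of the 9, 5 reached the detection level in MIST1 knockout and 6 in wild type zymogenic cells, and 2 in MIST1 knockout and 6 in wild type neck cells. They went both ways between the zymogenic arrays, with 2 of 6 detectable ones higher and 4 lower in MIST1 knockout. Rgs5, a pericyte marker, read 363 in MIST1 knockout and 394 in wild type zymogenic cells, while Pdgfrb was under the level on all 4 arrays. Fibroblast markers summed to 1408 in MIST1 knockout and 974 in wild type zymogenic cells. The part of these cells in the Notch3 difference was not tested.

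Among the ligands, Jag1 read 29.3 in MIST1 knockout and 38.9 in wild type zymogenic cells, and 24.5 in MIST1 knockout and 28.5 in wild type neck cells. Dll1, the ligand of early secretory cells in the intestine, read 31.9 in MIST1 knockout and 44.0 in wild type zymogenic cells, and 20.6 in MIST1 knockout and 27.3 in wild type neck cells. Jag1, Dll1 and Notch2 shared 1 order at both ends, with the highest value in wild type zymogenic and the lowest in MIST1 knockout neck cells. Across the 7003 genes that were under the detection level on all 4 arrays, 14% had this same highest and lowest array, beside 12.7% of all genes. Dll1, which reached the level on 1 array, is not among the 7003. Their median intensity was 25.9 in wild type zymogenic and 22.8 in MIST1 knockout neck cells, and that of all genes 44.4 and 41.65. Those arrays thus differ in the same direction among low genes and over all genes. The part of this in the order of Jag1, Dll1 and Notch2 was not tested. Dll1 passed the detection level on 1 array by a narrow margin, and its highest value was 2.13 times its lowest, although the arrays at these ends differ in both genotype and cell type.

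Dll4 had the largest difference of the 9 genes. It read 61.0 in MIST1 knockout and 74.5 in wild type zymogenic cells, and 43.5 in MIST1 knockout and 86.6 in wild type neck cells. The MIST1 knockout neck array was the lowest, just under the detection level, and the other 3 arrays were above it. The genotype difference in neck cells was -0.996, just short of 2-fold, and 4.34% of all detectable genes lay as far from 0 there. In zymogenic cells it was -0.29, so that the genotype difference in zymogenic cells minus that in neck cells was 0.71, a value with no test. With a pseudocount of 32, which damps low values, the neck difference was -0.65.

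Dll4 is best known from endothelium, and endothelial markers were read beside it. Of 9 measured, 2 reached the detection level in MIST1 knockout and 3 in wild type neck cells, and their summed intensity was 324 and 370 in these arrays. In zymogenic cells 4 of them reached it in MIST1 knockout and 3 in wild type mice, with sums of 387 and 365. Several other marker lists were also lower in the MIST1 knockout neck array, and some were higher. Immune markers summed to 194 in MIST1 knockout and 376 in wild type neck cells, fibroblast markers to 330 and 474, and endocrine markers to 3753 and 5827. Much of the immune drop was 1 gene, Cd53, at 6.30 in MIST1 knockout and 117.7 in wild type neck cells. Mucous neck markers were higher, at 11845 in MIST1 knockout and 9616 in wild type neck cells. So were parietal markers, at 10693 and 9712, and proliferation markers, at 2242 and 1818. The part of any of these in the Dll4 difference was not tested.

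Hes1, the best known Notch target of the gut epithelium, was the steadiest of the detectable genes. It read 172 in MIST1 knockout and 208 in wild type zymogenic cells, and 211 in MIST1 knockout and 194 in wild type neck cells. The 4 values lay within 1.23-fold of each other. Its differences were -0.27 and 0.12 between genotypes in zymogenic and neck cells, and 0.10 and -0.29 between cell types in wild type and MIST1 knockout mice. Between 56.2% and 87.6% of all detectable genes lay at least as far from 0 in these 4 comparisons.

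Hey1, a related repressor, read 45.0 in MIST1 knockout and 78.9 in wild type zymogenic cells, and 47.2 in MIST1 knockout and 54.7 in wild type neck cells. It was highest in wild type zymogenic cells, while the other 3 arrays were close together and not far above the detection level. Its genotype difference was -0.81 in zymogenic cells, with 17.6% of detectable genes as far from 0, and -0.21 in neck cells. Between cell types it was 0.53 in wild type and -0.07 in MIST1 knockout mice. The genotype and cell type differences that involve wild type zymogenic cells rest on the same array and are not separate observations.

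Rbpj read 157 in MIST1 knockout and 93.9 in wild type zymogenic cells, and 97.0 in MIST1 knockout and 90.6 in wild type neck cells. MIST1 knockout zymogenic cells stood apart, with the other 3 arrays close together. The difference was 0.74 between genotypes in zymogenic cells and 0.70 between cell types in MIST1 knockout mice, and both rest on that 1 array. Between genotypes in neck cells it was 0.10, and between cell types in wild type mice 0.05. Of all detectable genes, 21.0% and 20.1% lay as far from 0 in the 2 comparisons with the larger values.

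A further probe set annotated to Rbpj did not show this pattern. It read 23.4 in MIST1 knockout and 19.2 in wild type zymogenic cells, and 7.65 in MIST1 knockout and 28.0 in wild type neck cells, all under the detection level. The MIST1 knockout neck array was the lowest there, so that averaging both probe sets turned the neck genotype difference of Rbpj to -0.89 and brought its cell type difference in MIST1 knockout mice to 1.15, past 2-fold. RefSeq also lists 3 pseudogenes of Rbpj, Rbpj-ps1, Rbpj-ps2 and Rbpj-ps3, and whether either probe set reads them was not tested.

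**Figure D2:**
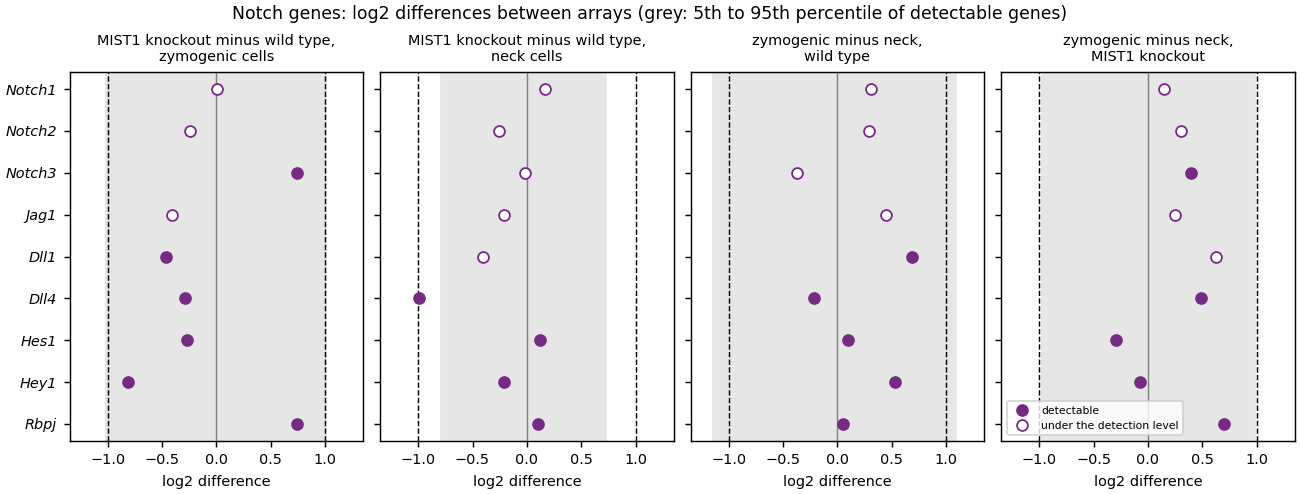
Log2 differences of the 9 Notch genes (rows) in the 4 comparisons (panels), 1 array against 1 array. Filled points are detectable, open points are under the detection level in both arrays, dashed lines mark 2-fold and the grey band spans the 5th to 95th percentile of all detectable genes. No point passes 2-fold, and Dll4 in neck cells, at -0.996, is the only one outside the band.

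Counted together, 0 of 6 detectable Notch genes differed by 2-fold or more between MIST1 knockout and wild type zymogenic cells, against 10.4% of all 11826 detectable genes. At 1.5-fold, a size chosen after the values were seen, 3 of 6 passed, with Notch3 and Rbpj higher and Hey1 lower, against 31.9% of all genes. Their median difference was -0.28, and that of all detectable genes 0.04. Parietal cell markers also differed between these zymogenic arrays, with a sum of 8787 in MIST1 knockout and 4944 in wild type cells and all 7 detectable ones higher in MIST1 knockout, and their part in these differences was not tested. In neck cells 0 of 4 passed 2-fold, against 4.29% of 10966 genes, and Dll4 alone passed 1.5-fold, against 18.7%. The median was -0.06 for the Notch genes and 0.003 for all genes.

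Between cell types, in wild type mice 0 of 5 detectable Notch genes passed 2-fold in zymogenic against neck cells, where 13.1% of all 11778 genes did. At 1.5-fold 1 of 5 passed, Dll1 at 0.69, against 34.7%, and the median was 0.10 beside 0.02 for all genes. In MIST1 knockout mice 0 of 5 passed 2-fold, against 9.70% of 11322 genes, and 1 of 5 passed 1.5-fold, Rbpj at 0.70, against 27.0%. The median there was 0.39 beside 0.05. With 4 to 6 genes per comparison these counts cannot set the Notch genes apart from other genes.

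The genes whose pattern over the 4 arrays came closest were found by centring each gene on its own mean and taking the largest gap in any array. This was done for the 3 Notch genes detectable on all arrays, among genes at or over the 75th percentile, an intensity of 80.9, on all arrays. Closest to Hes1 were Eef1b2, a translation elongation factor subunit, with a gap of 0.02, Hdgf at 0.03 and Pds5a, a cohesin cofactor, at 0.04. For so level a profile 48 of 3213 genes lay within a gap of 0.1. Closest to Hey1 were the stress kinase Mapk9 at 0.03, Rcor3 at 0.03 and Hspb11 at 0.05, with 11 genes within 0.1. Closest to Rbpj were the endoplasmic reticulum chaperone Canx at 0.06, Cipc at 0.07 and Calr, another such chaperone, at 0.07, with 14 within 0.1. Canx read 2225 in MIST1 knockout and 1374 in wild type zymogenic cells, and 1458 in MIST1 knockout and 1257 in wild type neck cells. This likeness rests on 4 arrays.

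The rest of the pathway was read from a list of 81 further genes, of which 78 had a probe set of their own, 33 reached the detection level on all arrays and 18 on none. Over the whole series 7003 of 19938 genes reached it on none. In zymogenic cells 1 of 55 detectable genes passed 2-fold between genotypes, or 1.82%, and it was Furin. In neck cells 2 of 47 did, or 4.26%, Olfm4 higher and Helt lower. In wild type mice 6 of 52 passed between cell types, or 11.5%, with Furin, Hes7, Mib1 and Maml3 higher and Hdac1 and Sox9 lower in zymogenic cells. In MIST1 knockout mice 6 of 54 passed, or 11.1%, with Furin, Hes7, Poglut1, Aph1c and Aph1b higher and Sox9 lower. These shares stand beside those of all genes given above, and medians over the list ran from -0.02 to 0.14. With the pseudocount of 32 the counts between cell types fell to 1 and 2, leaving Furin in wild type and Furin and Sox9 in MIST1 knockout mice.

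**Figure D3:**
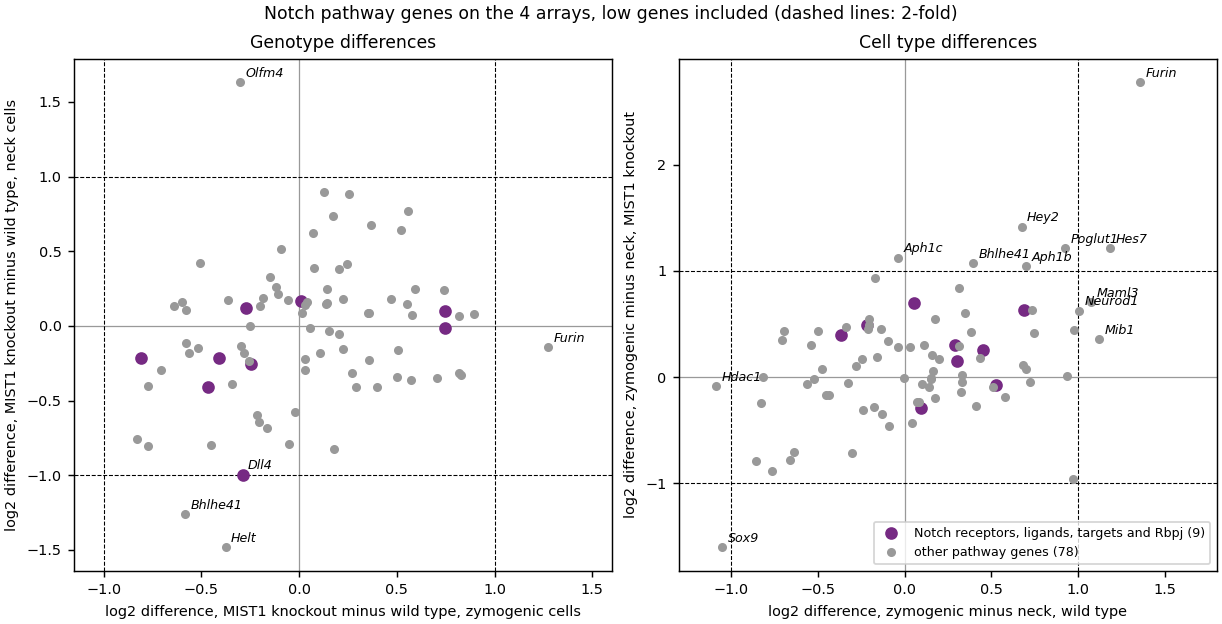
Log2 differences of 9 Notch genes (purple) and 78 other pathway genes (grey), between genotypes (left, zymogenic cells across and neck cells up) and between cell types (right, wild type across and MIST1 knockout up). Dashed lines mark 2-fold, and low genes are included. The purple points lie inside 2-fold on all axes, and Furin and Sox9 are farthest out between cell types.

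Furin is the convertase that cuts the Notch receptor on its way to the surface, and it processes many other secreted proteins too. It read 1023 in MIST1 knockout and 423 in wild type zymogenic cells, and 149 in MIST1 knockout and 165 in wild type neck cells. Zymogenic arrays were thus above neck arrays in both genotypes, by 1.36 in wild type and 2.78 in MIST1 knockout mice. Between genotypes it differed by 1.27 in zymogenic and by -0.14 in neck cells. Endocrine markers had the same order of arrays, with sums of 12982 and 8898 in zymogenic cells of MIST1 knockout and wild type mice against 3753 and 5827 in their neck cells. Fibroblast markers had this order too, with 1408 and 974 in zymogenic cells of MIST1 knockout and wild type mice against 330 and 474 in their neck cells. Zymogenic markers, summed above, and surface mucous markers shared this order as well. The surface mucous sums were 3463 and 3347 in zymogenic cells of MIST1 knockout and wild type mice, against 1944 and 2108 in their neck cells. The order is thus not particular to 1 marker list, and the part of any of them in the Furin values was not tested.

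Of the other proteases, Psenen, a small gamma-secretase subunit, read 306 in MIST1 knockout and 250 in wild type zymogenic cells, and 218 in MIST1 knockout and 289 in wild type neck cells. Adam10, which makes the first activating cut, read 118 in MIST1 knockout and 107 in wild type zymogenic cells, and 143 in MIST1 knockout and 121 in wild type neck cells. Both stayed within 1.5-fold in all comparisons. The gamma-secretase subunit genes Aph1b and Aph1c differed by 1.05 and 1.12 between cell types in MIST1 knockout mice, with the MIST1 knockout neck values under the detection level. They are close copies of each other, so their probe sets may share signal.

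In ligand handling, Mib1, the ubiquitin ligase that lets a ligand pull on its receptor, read 104.5 in MIST1 knockout and 158 in wild type zymogenic cells, and 81.5 in MIST1 knockout and 72.8 in wild type neck cells. It was highest in wild type zymogenic cells, with a cell type difference of 1.12 in wild type and 0.36 in MIST1 knockout mice and a genotype difference of -0.60 in zymogenic cells. Its relative Mib2 read 84.0 in MIST1 knockout and 106.5 in wild type zymogenic cells, and 62.3 in MIST1 knockout and 81.6 in wild type neck cells. Poglut1, which adds glucose to the EGF repeats of Notch, read 83.4 in MIST1 knockout and 77.4 in wild type zymogenic cells, and 35.9 in MIST1 knockout and 40.7 in wild type neck cells. Poglut1 reached the level in both zymogenic arrays and in neither neck array, while the fringe genes Rfng and Lfng, which tune ligand choice, were under the level on all arrays.

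In the nuclear complex, the coactivator gene Maml3 read 41.4 in MIST1 knockout and 59.2 in wild type zymogenic cells, and 25.3 in MIST1 knockout and 28.1 in wild type neck cells, so only 1 array was above the level. Hdac1, a corepressor deacetylase, read 94.3 in MIST1 knockout and 83.4 in wild type zymogenic cells, and 100.0 in MIST1 knockout and 177 in wild type neck cells. The wild type neck array stood apart, and a second Hdac1 probe set was also highest there, at 120.5. Averaged over both probe sets Hdac1 no longer passed 2-fold. Snw1, a partner of RBPJ in both repression and activation, read 296 in MIST1 knockout and 290.4 in wild type zymogenic cells, and 243 in MIST1 knockout and 299 in wild type neck cells, within 1.5-fold in all comparisons.

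Of the genes that limit Notch or turn it over, 0 of 10 detectable passed 2-fold in zymogenic cells and 0 of 8 in neck cells between genotypes, and 0 of 9 and 0 of 10 between cell types in wild type and MIST1 knockout mice. Over all detectable genes the shares were 10.4%, 4.29%, 13.1% and 9.70%, so zeros among so few genes do not set this list apart. Itch, a ubiquitin ligase acting on Notch, read 366 in MIST1 knockout and 218 in wild type zymogenic cells, and 381 in MIST1 knockout and 322 in wild type neck cells, lowest in wild type zymogenic cells. Fbxw7, which marks the intracellular part of Notch for degradation, read 125 in MIST1 knockout and 213 in wild type zymogenic cells, and 143 in MIST1 knockout and 189 in wild type neck cells. Numb, an endocytic inhibitor of Notch, read 149.8 in MIST1 knockout and 100.6 in wild type zymogenic cells, and 110.9 in MIST1 knockout and 142 in wild type neck cells. Among the remaining receptors and ligands, Dlk1, a non-canonical ligand, was detectable on 3 arrays, while Notch4, Jag2 and Dner were under the level on all 4.

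Among other Hes and Hey genes, Hes7, a repressor best known from the segmentation clock, read 121 in MIST1 knockout and 206 in wild type zymogenic cells, and 51.9 in MIST1 knockout and 90.6 in wild type neck cells. Zymogenic was above neck by 1.18 in wild type and 1.22 in MIST1 knockout mice, and MIST1 knockout was below wild type by -0.77 in zymogenic and -0.80 in neck cells. Hes5 and Heyl reached the level on all arrays with differences under 2-fold. Helt read 16.1 in MIST1 knockout and 45.0 in wild type neck cells, and its difference of -1.48 shrank to -0.68 with the pseudocount.

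**Figure D4:**
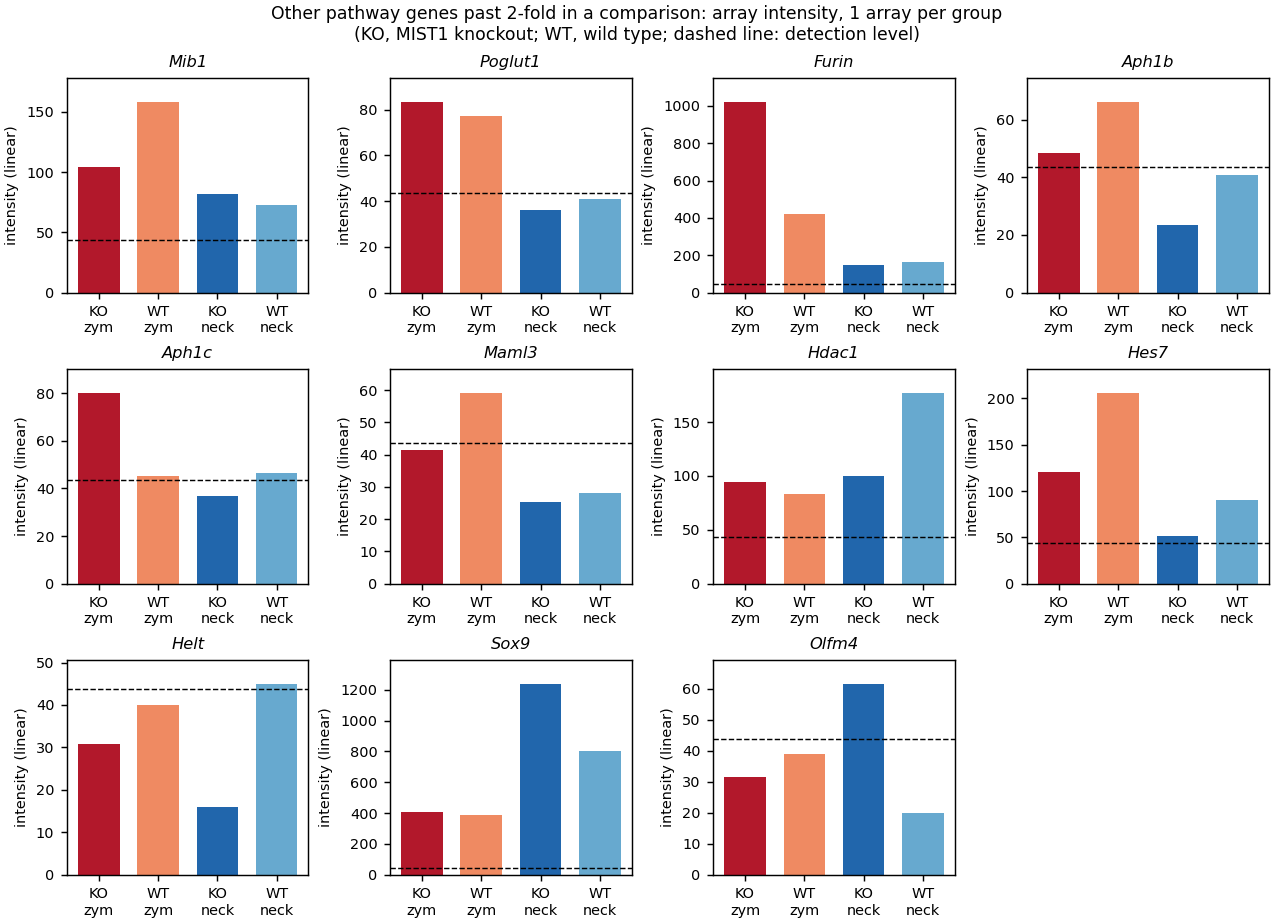
Array intensity (linear, from 0) of the 11 other pathway genes that passed 2-fold in a comparison, 1 bar per array, MIST1 knockout (KO) left of wild type (WT) and zymogenic left of neck cells. The dashed line is the detection level, and each panel has its own scale. Furin is highest in MIST1 knockout zymogenic cells at 1023 and Sox9 in MIST1 knockout neck cells at 1237.

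Among further reported targets, Sox9, a factor of gut progenitors, read 407 in MIST1 knockout and 388 in wild type zymogenic cells, and 1237 in MIST1 knockout and 803 in wild type neck cells. Zymogenic cells were below neck cells by -1.05 in wild type and -1.61 in MIST1 knockout mice. Proliferation markers, which also mark the dividing cells near the neck, summed to 737 and 576 in zymogenic cells of MIST1 knockout and wild type mice, against 2242 and 1818 in their neck cells, and their part was not tested. Olfm4 read 61.5 in MIST1 knockout and 19.9 in wild type neck cells, with 31.6 in MIST1 knockout and 38.95 in wild type zymogenic cells, so a single array was above the level and the difference of 1.63 became 0.85 with the pseudocount. Of 5 measured proneural and early endocrine genes, 3 were under the level on all arrays, among them Atoh1 and Neurog3, which Hes1 holds back in the intestine. Insm1, an endocrine differentiation factor, read 78.2 in MIST1 knockout and 69.3 in wild type zymogenic cells, and 72.0 in MIST1 knockout and 43.2 in wild type neck cells. Neurog2 reached the level in both zymogenic arrays, with 46.3 in MIST1 knockout and 59.5 in wild type cells, and in neither neck array.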

How the data were processed

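The deposited table holds 1 intensity per probe set and array on a linear scale, which the authors made with dChip per the series design text; its background correction, probe summary and scaling are not stated. Per the labels, RNA was pooled to about 100 ng and amplified before labelling. The platform annotation paired 21789 of the 35512 probe sets with a single gene, and only these were used. Names were checked by Entrez identifier against RefSeq of assembly GRCm38.p6. For a gene with several probe sets, the one with the highest mean was read. Values below an intensity of 1 were set to 1 before log2. No test was run: with 1 array per group there is no spread between replicates, and precision is limited by that number. The gene values and 2-fold counts were tested on simulated data, with changes larger than 2-fold put only into genes of high intensity. That test does not cover levels as low or differences as small as those of the 9 genes. Alternatives were a pseudocount of 32, quantile normalization, median centring, the 75th percentile as detection level, no detection level, and the mean over probe sets. All 9 genes are given in full; other pathway genes are named where detectable and past 2-fold, otherwise as examples from the 4 of highest mean in their list, except Jag2 and Dner, named after their values were seen. The genes, lists and rules were chosen with earlier results of these data known. Python 3.11.15, pandas 2.3.3 and numpy 2.4.6 were used.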

Additional observations from a re-analysis of the deposited data

Results flagged for a closer look

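Several genes had differences of opposite sign in the 2 settings of the same contrast. Each side was 1 array, and the difference between settings was not tested for any of them. How many of all genes had opposite signs was not counted, so this list does not set these genes apart. Between genotypes, given for zymogenic and then neck cells, Notch3 was at 0.74 and -0.0169 and Hes1 at -0.27 and 0.12. Of the wider pathway, only genes past 2-fold in a comparison are listed here. Others also had opposite signs, such as Numb at 0.57 and -0.36. Furin was at 1.27 and -0.14, Mib1 at -0.60 and 0.16, Aph1c at 0.83 and -0.33, Hdac1 at 0.18 and -0.82, Poglut1 at 0.11 and -0.18 and Olfm4 at -0.30 and 1.63. Between cell types, given for MIST1 knockout and then wild type mice, Notch3 was at 0.39 and -0.37, Dll4 at 0.49 and -0.22, Hes1 at -0.29 and 0.10 and Hey1 at -0.0704 and 0.53. Aph1c was at 1.12 and -0.0370 there, Helt at 0.94 and -0.17 and Olfm4 at -0.96 and 0.97. In 1 of the 2 settings Notch3, Poglut1, Helt and Olfm4 were under the detection level on both arrays. For any gene, the gap between its genotype differences equals the gap between its cell type differences. Notch3, Hes1, Aph1c and Olfm4, listed under both contrasts, are thus not separate observations there.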

How the results depend on the processing

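The count of core Notch genes at 2-fold or more was 0 in all 4 comparisons under the pseudocount, quantile normalization, median centring, the 75th percentile level and no level. Under the mean over probe sets it was 1 between cell types in MIST1 knockout mice, namely Rbpj, through its low second probe set, and 0 elsewhere. At 1.5-fold, chosen after seeing the data, it was 3 and 1 between genotypes in zymogenic and neck cells and 1 and 1 between cell types in wild type and MIST1 knockout mice. Of 144 single differences of these genes under alternatives, 143 moved by less than 0.48, the SD over genes of the neck pair. The Rbpj neck difference under the probe set mean moved more. Sign changed in 4 differences of Notch3 and Rbpj, none above 0.10 in size before the change. Under the probe set mean, Rbpj became -0.89 between genotypes in neck cells and -0.24 between cell types in wild type mice. For the other pathway genes, the pseudocount gave 0 between genotypes in neck cells and 1 and 2 between cell types in wild type and MIST1 knockout mice, and the 75th percentile level gave 0 in neck cells. At 1.5-fold 11 of 55 and 10 of 47 passed between genotypes in zymogenic and neck cells, or 20% and 21.3%. Over all detectable genes the shares were 31.9% and 18.7%. Between cell types 19 of 52 passed in wild type and 14 of 54 in MIST1 knockout mice, or 36.5% and 25.9%. The shares over all detectable genes there were 34.7% and 27.0%. No paired analysis was possible because each group was 1 array, so the groups share fewer than 2 replicate numbers; an additive fit of genotype and cell type over the 4 arrays was not run. Signal over background is unknown, and values under the detection level have no firm order.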
